A study of Mus musculus with 22 samples.

Results

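Histone H3 acetylated on lysine 27 (H3K27ac) was set against ChIP input in Kupffer cells of 2 inbred mouse strains. The comparison takes 12 of the 22 samples of the series, chosen by antibody and strain from their labels: H3K27ac ChIP–seq libraries of A/J (3) and BALB/cJ (3), and ChIP input libraries of A/J (3) and BALB/cJ (3). All came from male mice aged 8–12 weeks, with no transgene or mutation named in the labels and with the treatment label Control. Kupffer cells were sorted from liver non-parenchymal cells as live CD45+ CD146- singlets with high F4/80 and intermediate CD11b, after perfusion and digestion in the presence of flavopiridol, an inhibitor of transcription elongation, and were fixed before chromatin was sheared. Input is sheared chromatin of such cells sequenced without immunoprecipitation. Whether the libraries came from separate animals is not stated for each, so p-values measure the spread between these libraries. C57BL/6J libraries made in the same way (3 of H3K27ac, 1 of input) entered no test and are given beside the results as levels, and the 6 libraries of CB6F1/J hybrids were not used here.

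H3K27ac is laid down mainly by the acetyltransferases p300 and CBP and is removed by histone deacetylases. It marks nucleosomes beside active promoters and active enhancers, where bromodomain proteins can bind acetylated histones, while the nucleosome-poor centre of such an element carries little of it. Kupffer cells are the resident macrophages of the liver sinusoids. Their enhancers are opened by macrophage factors such as PU.1, an ETS protein encoded by Spi1, together with factors of the liver environment such as LXRα, encoded by Nr1h3.

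The measured units were windows of 1000 bases around merged ATAC–seq peaks of mm10. Each window thus held a peak in at least 1 strain or condition. Of the tested windows, 10352 had a peak in control cells of 0 strains and 21878 in those of 1 strain. An unacetylated window is therefore an open site of the merged set, but not always of the untreated cells compared here. Of 96381 windows, 94171 lay on autosomes and 93969 passed a mean normalized tag count of over 8, whereas 202 autosomal windows did not and 2210 lay elsewhere. Because 28.0% of autosomal windows overlapped the one before, neighbouring windows share tags. Windows were named by the nearest transcription start site (TSS), which need not be the gene they act on.

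Totals over all windows were 2291425.5 to 12014055 tags in the H3K27ac libraries and 716354 to 1916587.5 tags in the input libraries, and the median window held 55.5 tags over the 6 inputs together. Levels are CPM, tags per 1000000 tags counted in the windows of that library. A log2 fold change of 0 therefore means an equal share of the tags of both kinds of library, not equal chromatin, and other scalings moved the median window by −0.18 to 1.01 on the log2 scale without changing the order of the windows in any material way (Spearman correlation with the values given here of 0.9998 or more over 4 scalings). The counts also merge all cells of a sample, so that a larger share of cells with the mark and more mark per cell cannot be told apart. The input held 9.34–16.6% of its tags in 178 windows of very high input, called repeat windows here, against 1.01–4.00% of the H3K27ac tags. None of these windows was called higher in H3K27ac and 165 were called lower.

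The sequences that accompany the clearest difference among distal windows are shown first. A 12-base core of the motif of CTCF, the insulator protein that anchors chromatin loops, was concentrated in windows with little H3K27ac. The following 60 bases surround that core, in capitals, in 6 windows of low H3K27ac that were chosen after their values were seen, each read 5′ to 3′ on the strand that carries the core.
Rnls (chr19:33366802-33366861, minus strand): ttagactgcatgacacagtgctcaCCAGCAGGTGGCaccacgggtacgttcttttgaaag
Arhgef10 (chr8:14952430-14952489, plus strand): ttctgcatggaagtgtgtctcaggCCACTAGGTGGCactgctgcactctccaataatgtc
Vill (chr9:119067775-119067834, minus strand): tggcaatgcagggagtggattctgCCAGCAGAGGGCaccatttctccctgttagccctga
Chchd6 (chr6:89553464-89553523, minus strand): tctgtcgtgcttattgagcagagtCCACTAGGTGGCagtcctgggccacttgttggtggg
Lmo4 (chr3:144242203-144242262, minus strand): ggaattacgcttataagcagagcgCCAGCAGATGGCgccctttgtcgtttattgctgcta
Mir568 (chr16:43540237-43540296, plus strand): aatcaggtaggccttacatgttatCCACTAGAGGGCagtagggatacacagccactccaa

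For contrast, 4 distal windows of high H3K27ac, also chosen after their values were seen, carried the ETS element with a PU.1 flank (GAGGAAGT, capitals). They do not stand for the element in general. Over all distal windows the median log2 fold change was −1.74 with the element and −1.73 without it. Of the distal windows with it, 8.13% were called higher in H3K27ac and 64.0% were called lower. Of all windows beyond 3 kb from a TSS, 4.79% to 11.6% were higher and 57.6% to 74.7% were lower, depending on the class of distance.
Arap1 (chr7:101362905-101362964, minus strand): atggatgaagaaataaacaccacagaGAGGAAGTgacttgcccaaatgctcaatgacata
Pip5k1c (chr10:81298106-81298165, plus strand): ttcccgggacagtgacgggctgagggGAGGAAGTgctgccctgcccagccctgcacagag
Rnf19b (chr4:129032848-129032907, minus strand): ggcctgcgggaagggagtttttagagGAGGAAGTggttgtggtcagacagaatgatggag
Tnfaip2 (chr12:111437466-111437525, minus strand): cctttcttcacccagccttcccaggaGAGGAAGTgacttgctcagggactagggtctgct

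The windows around the CTCF cores had medians of 0 to 0.286 CPM in H3K27ac and 9.45–10.8 CPM in input, and their log2 fold changes lay between −5.72 and −4.99. The 4 windows with the ETS element had medians of 70.8–114 CPM in H3K27ac, against 6.62–11.3 CPM in input, with log2 fold changes of 2.84–3.26. In none of the 10 windows did the 6 H3K27ac libraries overlap the 6 input libraries. Among all called windows this held for 88.3% of the higher and 74.0% of the lower ones.

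Promoters can be shown in the same way. Below are the central 200 bases of promoter windows among the most and least acetylated, on the plus strand, with each CpG dinucleotide in capitals, for those named windows whose centre holds no annotated exon. Ubb, Mir1938 and Pcbp1 were among the highest and Cgref1 among the lowest, and these stretches held 5, 15, 32 and 3 CpG in that order.
Ubb (chr11:62550427-62550626, plus strand): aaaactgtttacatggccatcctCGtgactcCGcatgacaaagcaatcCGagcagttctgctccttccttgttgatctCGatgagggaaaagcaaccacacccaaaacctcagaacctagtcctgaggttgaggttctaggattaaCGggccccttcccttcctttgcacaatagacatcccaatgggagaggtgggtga
Mir1938 (chr12:40222452-40222651, plus strand): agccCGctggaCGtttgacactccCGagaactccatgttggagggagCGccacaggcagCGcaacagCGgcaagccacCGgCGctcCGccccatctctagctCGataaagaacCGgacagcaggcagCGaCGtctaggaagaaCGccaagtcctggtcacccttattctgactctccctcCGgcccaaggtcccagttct
Pcbp1 (chr6:86526586-86526785, plus strand): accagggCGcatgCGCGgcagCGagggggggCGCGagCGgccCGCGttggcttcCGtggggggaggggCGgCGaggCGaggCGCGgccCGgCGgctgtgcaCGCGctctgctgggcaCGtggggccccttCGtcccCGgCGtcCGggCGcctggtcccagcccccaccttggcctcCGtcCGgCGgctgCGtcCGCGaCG
Cgref1 (chr5:30945609-30945808, plus strand): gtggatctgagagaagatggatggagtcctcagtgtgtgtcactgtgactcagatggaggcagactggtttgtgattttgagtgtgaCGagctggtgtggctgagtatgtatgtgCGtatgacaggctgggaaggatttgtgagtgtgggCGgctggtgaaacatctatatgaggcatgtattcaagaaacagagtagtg

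Over both strains, 16710 windows had a larger share of H3K27ac than of input tags (17.8% of the 93969 tested) and 48643 a smaller one (51.8%). Calls come from edgeR's quasi-likelihood test, adjusted by Benjamini and Hochberg's method, and need an adjusted p under 0.05 together with a log2 fold change above 1 or below −1. The other 28616 windows (30.5%) were not called. The median log2 fold change was −1.13 with a median standard error of 0.33, the middle 50% of windows lay between −2.76 and 0.52, and the whole range was −6.60 to 4.15. The 6 H3K27ac libraries lay wholly above the 6 inputs in 14755 of the higher windows (88.3%) and wholly below them in 35983 of the lower windows (74.0%). The split into higher and lower follows the scale: higher windows made up 25.6% of the calls here, 43.8% with TMM factors, 47.3% with library sizes from distal intergenic windows, 38.9% with DESeq2 and 21.8% with library sizes free of repeat windows. No call turned into the opposite call under any of these.

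Enrichment was shared by the strains. Of the tested windows, 14005 (14.9%) were called higher and 43465 (46.3%) were called lower in A/J and in BALB/cJ taken alone, which is 83.8% of the higher and 89.4% of the lower calls. Only 72 windows were higher in one strain and lower in the other. Over all tested windows the log2 fold changes of A/J and BALB/cJ had a Pearson correlation of 0.920 and a Spearman correlation of 0.926, a description over windows that share the libraries. A test of the difference between the strains passed the same thresholds at 505 windows (0.537%), with the A/J value above the BALB/cJ value at 209 and below it at 296. Of those 505, 1 was among the windows higher in each strain and 41 were among the windows lower in each strain. H3K27ac libraries of the same replicate number deviated together across the strains, and with that number as a block within H3K27ac the test passed at 992 windows, all 505 among them. With only the replicates 2 of H3K27ac, 1 library per strain, it passed at 51.

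In C57BL/6J, whose libraries had no part in the calls, the mean of 3 H3K27ac libraries lay above the single input in 98.7% of the windows higher in each of the other strains and below it in 95.3% of the windows lower in each. Over all tested windows the C57BL/6J mean lay above its input in 37.7%.

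Promoters took the largest gain of tags. Promoter windows held 30.3% ± 0.681 of autosomal tags in H3K27ac and 14.3% ± 1.07 in input (mean ± SD, n = 6 each), with ranges of 29.7–31.2% and 13.1–15.9%. The H3K27ac and input libraries did not overlap, and the difference was 15.97 percentage points (exact two-sided permutation test, p = 0.0022, the smallest that 6 against 6 can give, and 0.0032 adjusted over 3 classes). Within A/J the shares were 30.6% ± 0.763 and 14.4% ± 0.746, and within BALB/cJ they were 29.9% ± 0.420 and 14.2% ± 1.52 (H3K27ac and input, n = 3 each). The 3 C57BL/6J H3K27ac libraries held 29.2% ± 0.674, against 13.4% in the single input. The 2 H3K27ac libraries whose counts come in steps of 0.5, as the inputs do, had 30.4% ± 1.07, and the 4 with whole counts had 30.2% ± 0.608. All these shares include the repeat windows. Without the repeat windows, promoter shares of the A/J and BALB/cJ libraries were 30.0–31.6% in H3K27ac and 15.6–17.6% in input, so the difference was smaller, again with no overlap.

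Intergenic windows showed the reverse. They held 22.9% ± 1.02 of the tags in H3K27ac and 39.8% ± 1.66 in input, a difference of −16.9 percentage points with no overlap (n = 6 each, exact permutation p = 0.0022, adjusted 0.0032). These shares include the repeat windows, which held 9.34–16.6% of the input tags and 1.01–4.00% of the H3K27ac tags. Intergenic shares without the repeat windows were not computed. For introns the share was 39.3% ± 0.613 in H3K27ac and 39.5% ± 0.559 in input, and the groups overlapped (n = 6 each, exact permutation p = 0.56).

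**Figure D1:**
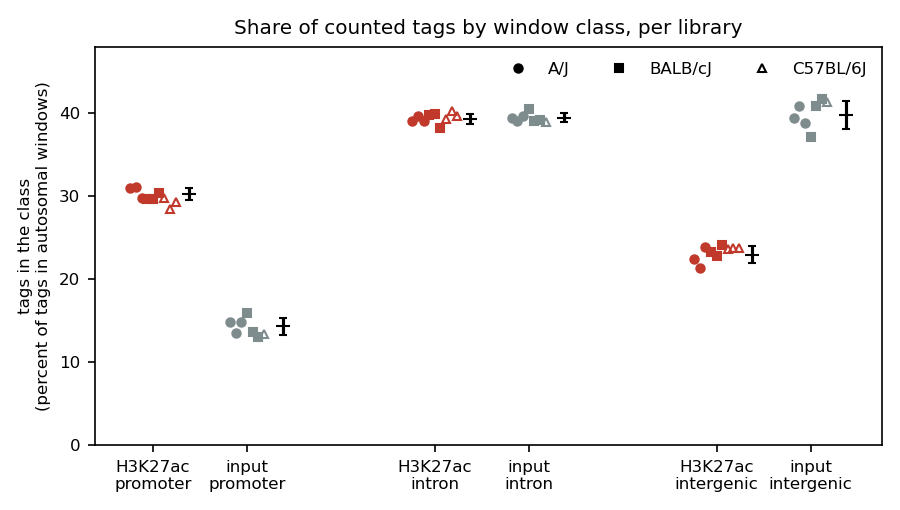
Percent of each library's autosomal tags in promoter, intron and intergenic windows, H3K27ac left and input right, with A/J as circles, BALB/cJ as squares and C57BL/6J as open triangles, and bars for the mean and SD of the 6 A/J and BALB/cJ libraries. Promoter shares lay between 29.7% and 31.2% in H3K27ac and between 13.1% and 15.9% in input, while the intron shares overlapped.

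Among single windows, 41.7% of 14191 promoter windows were higher and 3122 windows were lower, and their median log2 fold change was 0.67. Of 41124 intron windows, 15.6% were higher and 51.8% lower, with a median of −1.11. Of 32359 intergenic windows, 9.57% were higher and 65.4% lower, with a median of −1.98. The median level was 15.8 CPM in H3K27ac and 9.75 in input for promoters, 4.16 and 8.77 for introns, and 2.19 and 8.59 for intergenic windows, so that the classes differed in the immunoprecipitated libraries and hardly in input. Promoters made up 39.5% of the highest decile of windows, 6.62% of the lowest decile and 15.1% of all. The sign of the promoter, intron and intergenic medians held under every scaling tried. It did not hold for some smaller classes. With library sizes from distal intergenic windows the median went from −0.57 to 0.44 for UTR windows, from −0.94 to 0.056 for exons and from −0.72 to 0.29 for noncoding exons. In number, however, more introns (6405) than promoters (5924) were called higher, along with 3098 intergenic windows. The classes other than promoter include windows close to a TSS: within 1000 bases of one, 8883 windows of all classes were higher.

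Acetylation was strongest not at the TSS but just inside the transcript. The median log2 fold change was 1.10 at 400–600 bases downstream, where 52.3% of 2067 windows were higher. In the 200 bases on either side of the TSS the medians were 0.69 and 0.70, with 42.4% and 42.6% of windows higher. Upstream the median was 0.78 at 200–400 bases and −0.19 at 1000–1200 bases, whereas downstream it was still 0.17 at 1000–1200 bases. Further out it fell steadily, with medians of 0.73 within 1000 bases, −0.66 at 1–3 kb, −1.43 at 3–10 kb, −1.60 at 10–30 kb, −1.86 at 30–100 kb and −2.32 beyond 100 kb. Beyond 100 kb, 4.79% of 7366 windows were higher and 74.7% were lower.

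**Figure D2:**
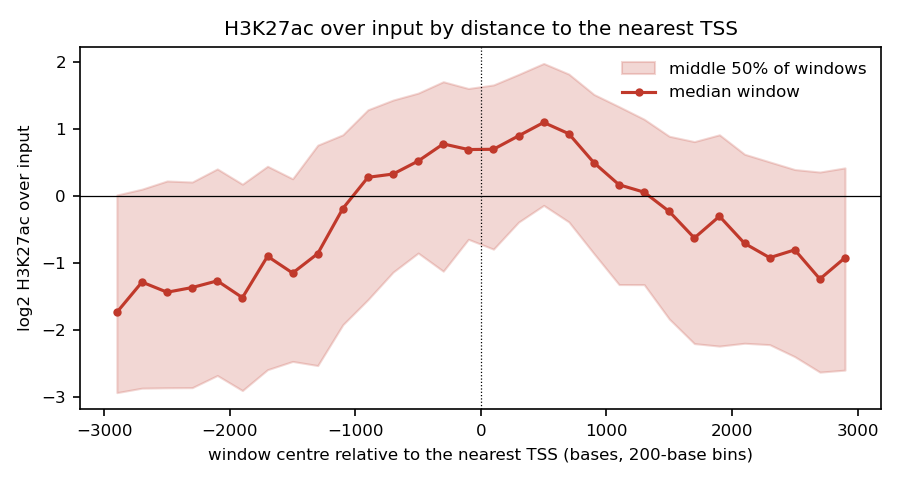
Median log2 fold change of H3K27ac over input (line) and the middle 50% of windows (band) by distance of the window's centre from the nearest TSS, in bins of 200 bases from −3000 to 3000. The median peaked at 1.10 at 400–600 bases downstream and was lower upstream than downstream in each pair of bins at equal distance.

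Among promoters, the highest window by this rule was that of Spag9, a scaffold for JNK signalling and vesicle transport (chr11:93995635-93996635), with 78.4, 90.9 and 104 CPM in H3K27ac (lowest, median and highest of 6 libraries), against 5.22, 6.54 and 9.01 in input. Its log2 fold change was 3.80 ± 0.23 (SE) with an edgeR adjusted p of 1.46e-23. At Ubb, which encodes polyubiquitin (chr11:62550027-62551027), the levels were 92.5, 124 and 154 in H3K27ac, against 5.02, 10.1 and 13.5 in input. In both windows the lowest H3K27ac library lay above the highest input library, as the choice of the named windows required.

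Mia2, which helps to export large cargo from the endoplasmic reticulum (chr12:59130832-59131832), had 107, 119 and 139 CPM in H3K27ac and 5.58, 9.33 and 12.5 in input. Pcbp1, an RNA-binding protein and iron chaperone (chr6:86526186-86527186), had 118, 129 and 153 in H3K27ac and 2.79, 11.9 and 18.8 in input. Rela, the p65 subunit of NF-κB (chr19:5636865-5637865), had 96.6, 129 and 158 in H3K27ac and 5.58, 11.9 and 19.1 in input. Their log2 fold changes were 3.62 ± 0.22, 3.50 ± 0.22 and 3.48 ± 0.22. The remaining windows of the highest 8 were those of BC049762 (3.54), Ppp2r5c (3.52), a regulatory subunit of the phosphatase PP2A, and Mir1938 (3.51), where 1 input library had no tag.

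The least acetylated promoters included those of Elavl3 and Slc6a7, both genes of neurons. Elavl3, a neuronal RNA-binding protein (chr9:22051429-22052429), had 0, 0.198 and 0.676 CPM in H3K27ac, against 6.09, 8.65 and 19.2 in input, a log2 fold change of −5.11 ± 0.47 (adjusted p = 2.45e-15, edgeR). Slc6a7, a proline transporter of the brain (chr18:61014224-61015224), had 0, 0.109 and 0.873 in H3K27ac and 5.63, 10.2 and 19.5 in input (−5.17 ± 0.49). Also among the 8 lowest were Vgll4 (−4.89), a cofactor of TEAD factors, Steap1 (−4.81), Col19a1 (−4.78), a collagen, Gipr (−4.73), the receptor of an incretin hormone, and Cgref1 (−4.69). The windows of Gipr and Cgref1 had no ATAC–seq peak in control cells. The same was true of some intron and intergenic windows named below. These were Herpud1, Ranbp2 and Derl1 among the highest, and Tyro3, Ankrd50, Klhl24 and Csrp1 among the lowest. The 8 lowest promoter windows held 12–17 H3K27ac tags over 6 libraries, so that their order among themselves rests on few tags. In C57BL/6J the 8 highest promoters had 64.0–138 CPM in H3K27ac, against 5.14–18.9 in input, and the 8 lowest had 0–1.77 in H3K27ac, against 3.43–13.7 in input.

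All 8 of the most acetylated intron windows lay in a first intron, 193 to 667 bases downstream of a TSS, where the profile of distance also peaked. The highest was in Ppp2ca, the catalytic subunit of PP2A (chr11:52098804-52099804, intron 1 of 6), with 136, 169 and 185 CPM in H3K27ac, against 5.24, 9.90 and 14.6 in input (4.07 ± 0.22, adjusted p = 1.2e-25, edgeR). The phosphatase thus appeared with its catalytic and a regulatory subunit in the lists of highest windows. Herpud1 and Derl1, which serve the degradation of misfolded proteins of the endoplasmic reticulum, had log2 fold changes of 3.85 ± 0.23 and 3.58 ± 0.24. At Herpud1 (chr8:94386529-94387529) H3K27ac levels were 90.5, 106 and 121, against 4.19, 6.87 and 13.4 in input. The others were Ranbp2 (3.76), a protein of the nuclear pore, Slc39a1 (3.74), a zinc importer, Unk (3.65), an RNA-binding zinc finger protein, Zbtb4 (3.60), which binds methylated DNA, and Tbc1d5 (3.54), a regulator of the small GTPase Rab7.

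The least acetylated intron windows lay deeper in genes, and 3 of the 8 held the CTCF core. In intron 1 of Tyro3, a receptor kinase of the family that also holds Axl and Mertk (chr2:119800789-119801789), H3K27ac had 0, 0.109 and 0.676 CPM and input had 7.52, 10.3 and 14.0, a log2 fold change of −6.02 ± 0.51. Rnls, a flavin-dependent oxidase (chr19:33366296-33367296, intron 2 of 4), had 0, 0.0466 and 0.404 in H3K27ac and 6.09, 9.45 and 16.9 in input (−5.72 ± 0.50), and its CTCF core is printed above. Dpf1, a subunit of neuronal chromatin remodelling complexes, and Akain1 stood at −5.77 ± 0.53 and −5.97 ± 0.52. Mir3965 (−5.68), Ccl28 (−5.61), Arhgef10 (−5.50) and Ankrd50 (−5.44) made up the rest. The window of Ccl28 had 0.25, 0.815 and 2.03 CPM in H3K27ac, against an unusually high 14.6, 27.1 and 77.7 in input.

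Among intergenic windows, the highest was near Mknk2, a kinase of the translation factor eIF4E (chr10:80677463-80678463, distance −1670 bases), with 79.9, 105 and 110 CPM in H3K27ac, against 3.49, 8.24 and 12.5 in input (3.71 ± 0.24, adjusted p = 2.79e-22, edgeR). Windows near Sde2 (3.51), Hnrnpl (3.46), a splicing regulator, and Pim1 (3.36), a serine/threonine kinase induced by cytokines, also lay close to a start site, at −2236, −1728 and −1177 bases. A distal one was nearest to Ccr1, a chemokine receptor of myeloid cells (chr9:123923012-123924012, distance 45180 bases). It had 74.7, 82.2 and 90.7 in H3K27ac and 4.50, 8.02 and 11.2 in input, a log2 fold change of 3.47 ± 0.23. Cdkn2aipnl (3.43), Bicral (3.36) and Anp32e (3.30), a chaperone of the histone variant H2A.Z, were 22002 bases or more from their windows.

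The lowest intergenic window was nearest to Zmynd11, a reader of methylated histone H3.3 (chr13:9833874-9834874), with 0, 0.0921 and 1.69 CPM in H3K27ac, against 9.01, 20.6 and 30.1 in input (−6.37 ± 0.48). Repeat windows entered this set too. The windows of Myl12b (−5.68) and Mir101c (−5.67 ± 1.17) were repeat windows, and that of Mir101c held 1.61, 12.4 and 146 CPM in H3K27ac, against 1848, 2639 and 2894 in input. Its H3K27ac levels split by how the counts were made: the replicates 2, in steps of 0.5 tags like the inputs, held 146 CPM (A/J) and 137 CPM (BALB/cJ), and the 4 whole-count libraries had 1.61 to 13.7. Its log2 value therefore mixes both kinds, and with the 2 fractional H3K27ac libraries alone it was −4.14. The windows of AY702102 (−5.63), Klhl24 (−5.43), Csrp1 (−5.35), Sync (−5.33) and Rab11fip5 (−5.29) had input of 5.02 to 18.1 CPM, an ordinary level. All 48 named windows stayed on the same side of the thresholds in all 912 alternative fits of them, and none passed the test of a difference between A/J and BALB/cJ. They were chosen as extremes that were called in the same direction in each strain, so neither outcome is a check on them.

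**Figure D3:**
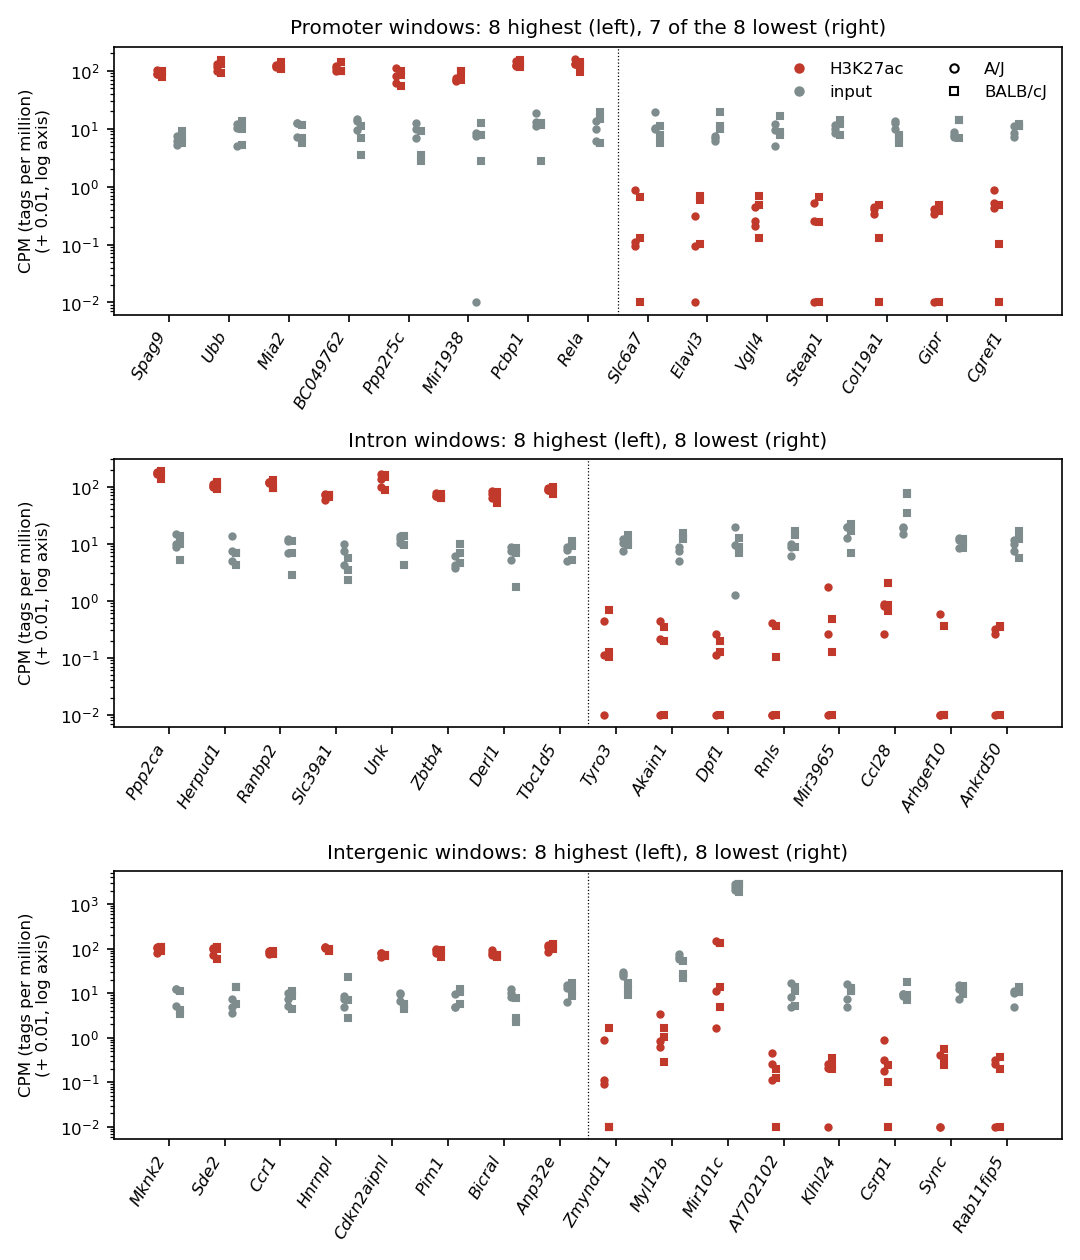
CPM (plus 0.01, log axis) in each library for the 8 highest and 8 lowest windows of each class (promoter, of which 7 of the lowest are drawn, intron, intergenic), H3K27ac left of input for each gene. H3K27ac libraries lay above input in each of the highest windows drawn and below it in each of the lowest, as the choice of the windows required.

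Windows were also counted by the gene nearest to them. The genes with the most higher windows were Rasgef1b (37 of its 110 tested windows), a Ras exchange factor induced by Toll-like receptors, Zeb2 (35 of 68), a repressor that maintains macrophage identity, Frmd4b (31 of 69) and Plekho2 (26 of 42). The rest were A630001O12Rik (26 of 58), A530013C23Rik (25 of 53), Lrp1 (23 of 38), a scavenger and lipoprotein receptor, Mir29b-1 (23 of 40), Itga9 (22 of 60), an integrin, and Lgmn (22 of 52), a lysosomal protease. In all 10 the share of higher windows, 33.6% to 61.9%, was above the 17.8% of all windows, but this order follows how many windows a gene has, and overlapping windows are counted apart. Lower windows also occurred in each of them, from 4 in Lrp1 to 27 in Rasgef1b.

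The genes with the most lower windows fell into separate kinds. Pisd-ps1 (50 of 55) and Sfi1 (47 of 49) are neighbours on chromosome 11 whose windows were nearly all repeat windows (47 and 49), with medians of 1256 and 1582 input tags. For the other 8 the median input was 53–58 tags per window. These were Klf4 (49 of 62), Tbl1xr1 (41 of 61), Adgrl2 (39 of 55), an adhesion receptor, 1700016G22Rik (38 of 60), Ext1 (38 of 57), an enzyme of heparan sulfate synthesis, Pik3r1 (38 of 75), Gm17746 (37 of 53) and Elmo1 (36 of 58). Against the 51.8% of all windows that were lower, the share was 50.7% in Pik3r1, which is not above it, 62.1% in Elmo1 and 63.3% in 1700016G22Rik, and larger in the other 5. Klf4 is a transcription factor of epithelia and myeloid cells, and the windows nearest to it spanned chr4:55475927-56135078.

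Of 6298 genes with 5 or more tested windows, 16 had every window higher and 666 had every window lower. The counts of this paragraph follow the scale used here, on which 17.8% of all windows were higher and 51.8% lower. They were not repeated under other scalings. The longest runs, picked after the values were seen, were Zfp36, which encodes the mRNA-destabilising protein tristetraprolin, with 10 of 10 windows higher (median log2 2.21), and Mir22hg with 7 of 7 (2.26). Every one of 21 windows of Flrt3 was lower (median −3.02), as were 20 of Efna5 (−3.05), an ephrin, and 20 of Zfp704 (−3.29). No window was higher in 2558 of the 6298 genes, and none was lower in 263.

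Promoters were then read by gene lists, with 1 window per gene, the one nearest the TSS within 1000 bases. Over all 12131 genes with such a window, 4931 were higher (40.6%) and 3025 lower (24.9%), and the median log2 value was 0.60. The label of the cells was checked against their markers. Of 22 Kupffer cell identity genes with a promoter window (of 23 listed), 14 were higher and 1 lower, with a median of 1.32. Il18bp, the inhibitor of interleukin 18, had 50.6, 57.3 and 69.6 CPM in H3K27ac, against 4.36, 8.69 and 9.91 in input (2.82 ± 0.22). Adrb1, the β1-adrenergic receptor, stood at 2.50 ± 0.26. The transcription factors Spic (1.93), Nr1h3 (1.70), Id3 (1.64) and Id1 (1.31) were higher, as were Cd5l (1.32), a secreted scavenger protein, Slc40a1 (1.11), the iron exporter, and Timd4 (1.06), a receptor of phosphatidylserine.

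Not every marker gene had an acetylated promoter. The scavenger receptor Marco was lower (−1.99 ± 0.36, but −0.98 and not called with library sizes from distal intergenic windows), with 0.932, 2.14 and 5.24 CPM in H3K27ac, against 5.24, 7.95 and 14.6 in input, and 20 of its 24 windows were lower. Cd163, the haemoglobin scavenger receptor, had −0.89 ± 0.31, Folr2 had −0.54 ± 0.33 and Clec4f had 0.89 ± 0.27, all short of the fold threshold, yet 14 of 27 windows of Clec4f were higher. With library sizes free of repeat windows Slc40a1 (0.92) and Timd4 (0.88) were no longer called and Cd163 (−1.08) was called lower. Over all windows of the list, 152 of 467 were higher and 139 lower, with a median of 0.30, against −1.13 over all tested windows.

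Macrophage genes were similar. Of 29 with a promoter window, 19 were higher and 0 lower (median 1.37). Spi1 had 63.5, 74.4 and 87.7 CPM in H3K27ac, against 8.35, 12.8 and 20.1 in input (2.59 ± 0.21), and Tyrobp, an adaptor of activating receptors, had 53.9, 56.3 and 68.4, against 6.76, 8.94 and 13.6 (2.57 ± 0.21). Fcgr1, a receptor of IgG (−0.01 ± 0.27), and Itgam, which encodes CD11b (−0.76 ± 0.31), were not called. Csf1r, the receptor of the growth factor that macrophages depend on, had 0.83 ± 0.26 at its promoter and 2.03 in an intron 1302 bases downstream. The promoter of Csf1r was called higher with TMM factors (1.66), library sizes from distal intergenic windows (1.84) and DESeq2 (1.45). Of 25 housekeeping genes, 21 were higher and 0 lower (median 1.80), led by Ubb (2.77 at the window nearest the TSS), whereas Tbp, the TATA-binding protein (0.05 ± 0.23), and Reep5 (0.03 ± 0.28) were near 0.

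Genes of the machinery of the mark itself were acetylated on the whole, with 15 of 24 higher and 3 lower (median 1.43). Ep300, which encodes p300, had 57.7, 74.1 and 104 CPM in H3K27ac, against 6.98, 8.67 and 14.6 in input (2.93 ± 0.22). The related Crebbp had 1.30 ± 0.32. The lower ones were Hdac9, a class IIa deacetylase (−3.28 ± 0.50), and the paralogous acetyltransferases Kat2b (−2.05 ± 0.36) and Kat2a (−1.11 ± 0.36). The call of Kat2a was lost with TMM factors (−0.29), library sizes from distal intergenic windows (−0.09) and DESeq2 (−0.51), which left 2 lower. Hdac4 and Hdac5, of the same class as Hdac9, were higher (1.84 ± 0.22 and 2.11 ± 0.25).

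Markers of other liver and blood cells had few promoter windows, and 0 of these promoters were higher. Of 20 hepatocyte genes listed, 2 had a promoter window and both were lower (Apoa2 −3.71 ± 0.38, Ass1 −2.79 ± 0.46), and of 40 windows of this list 0 were higher and 35 lower. Among sinusoidal endothelial genes 5 of 6 promoters were lower, among stellate cell genes 2 of 3, among cholangiocyte genes 2 of 2, among B cell genes 1 of 2, among T and NK cell genes 4 of 4, and among neutrophil and monocyte genes 2 of 2. Eng, a co-receptor for TGF-β (−1.53), was not called with TMM factors, intergenic library sizes and DESeq2, which left 4 of 6 endothelial promoters lower, and S100a8, a calcium-binding protein of neutrophils (−1.68), was not called with TMM factors and intergenic library sizes, which left 1 of 2. Away from promoters some windows of these lists were higher: 4 of 78 endothelial windows, 4 of 40 of B cell genes, 4 of 39 of T and NK cell genes and 1 of 24 of neutrophil and monocyte genes, shares of 5.13%, 10.0%, 10.3% and 4.17% against the 17.8% of all windows. Of the endothelial windows 3 were nearest to Pecam1, which encodes CD31, and the highest of them averaged 55.4 CPM in H3K27ac and 11.6 CPM in input (2.26 ± 0.21), while 1 was nearest to Stab2 (1.08 ± 0.26). The others were nearest to Blk, a Src family kinase of B cells (4 windows, at most 1.47 ± 0.23), Klrb1c, which encodes NK1.1 (4 windows, at most 1.72 ± 0.23), and Ccr2, a chemokine receptor of monocytes (1.40 ± 0.26). The summed level of the hepatocyte promoters was 1.03–4.36 CPM in H3K27ac, against 9.60–34.1 in input, and that of the endothelial promoters was 5.58–16.9, against 41.2–55.8. Kdr, the VEGF receptor of endothelium, had 0.338, 0.488 and 0.873 in H3K27ac and 5.63, 6.88 and 14.0 in input (−4.02 ± 0.44). Bmp2 (−0.79 ± 0.37), Ecm1 (−0.15 ± 0.30) and Cd22 (−0.17 ± 0.28) were the 3 promoters of these lists that were not called. Whether these sites were open in Kupffer cells or in other cells of the sort was not tested.

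Promoters of developmental genes lay among the lowest. Of 16 promoters of developmental transcription factors, 14 were lower and 0 higher (median −4.18). Alx4, a homeobox factor of the limb and skull, had 0, 0.309 and 0.705 CPM in H3K27ac, against 5.58, 10.8 and 18.3 in input (−5.10 ± 0.46), and Hoxd9, Pax6 and Neurog2 stood at −4.81, −4.71 and −4.39. Hoxb4 (0.41 ± 0.30) was not called, with H3K27ac libraries that overlapped input, and it was called higher under TMM factors, library sizes from distal intergenic windows and DESeq2. All 3 neuronal promoters were lower (Slc17a7 −4.93, Grin1 −4.45, Kcnq3 −3.83), and so were 16 of 17 olfactory and vomeronasal receptor promoters (median −2.58), of which Vmn2r29 (0.19 ± 0.31) was not called. The receptor promoters that were lower numbered 12, with Vmn2r29 called higher, under TMM factors and intergenic library sizes, and 13 under DESeq2. The median of each list kept its sign under the 4 other scalings, and the higher Kupffer cell promoters numbered 12 to 19 over them, set against 36.0% to 62.0% of all genes.

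**Figure D4:**
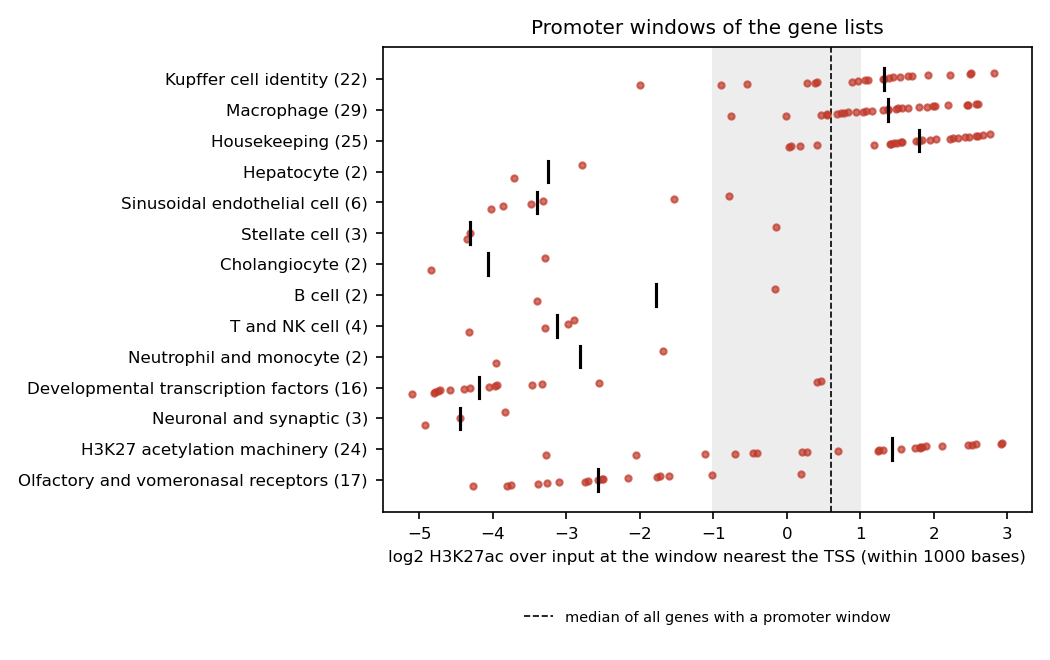
Log2 fold change of H3K27ac over input at the promoter window of each gene, by gene list, with the median of each list as a tick, the range of −1 to 1 shaded and the median of all 12131 genes dashed. Kupffer cell, macrophage, housekeeping and acetylation machinery lists had medians of 1.32 to 1.80, and the lists of other cell types and of developmental genes lay between −1.78 and −4.45.

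Promoters rich in CpG were more acetylated. Promoter windows with fewer than 10 CpG had a median log2 fold change of −0.37 with 22.4% higher (n = 604). With 40–59 CpG the median was 0.50 with 36.4% higher (n = 3261), and with 80 or more it was 1.33 with 58.2% higher (n = 3384). Each class of CpG content in between fell into this order. Even in the richest class 14.7% of windows were lower. From the lowest to the highest quintile of promoters by log2 fold change the mean number of CpG was 47.3, 49.7, 55.4, 62.1 and 70.9 per window, and for introns it was 13.3 in the lowest and 28.5 in the highest quintile. Median input over the quintiles of promoters was 53 to 64 tags. The named windows are extremes of the same data. Among them the 8 highest promoters had a median of 90.5 CpG (range 32 to 119) and the 8 lowest 44 (18 to 86), so that the ranges overlapped. The 8 highest introns had a median of 74 (33 to 109) and the 8 lowest 15 (5 to 33).

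In distal windows, over 3000 bases from a TSS (n = 64312), the CTCF core marked the unacetylated end. It was found within the central 200 bases of 10.6% of the lowest quintile, then of 3.51%, 1.40%, 1.01% and 0.498% of the following quintiles, and of 3.41% of all distal windows (2.77% of windows of every kind). Among all windows beyond 3 kb from a TSS, 57.6% to 74.7% were lower and 4.79% to 11.6% higher, depending on the class of distance. Of the 2194 distal windows with the core, 92.0% were lower and 1.05% higher, with a median of −3.51, against −1.66 without it. The order was the same in introns (8.51% in the lowest quintile, 0.267% in the highest) and in intergenic windows (10.8% and 0.711%), and weak at promoters (2.11% and 0.705%). It also held among windows with peaks in control cells of all 3 strains, where the median was −3.11 with the core (n = 974) and −0.59 without it (n = 28390). These are descriptions over windows, and a match of letters is not bound protein.

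Other elements, searched on both strands within the same central 200 bases, followed the fold change less closely. The AP-1 element (TGANTCA, in 14.3% of all windows) was found in 21.7% of the lowest and 14.9% of the highest quintile of distal windows. The tandem IRF element (GAAANNGAA, 8.83% of all windows) went the other way, with 7.56% and 10.8%. The ETS element with a PU.1 flank (8.57% of all windows) was found in 8.19%, 11.7%, 11.6%, 10.3% and 9.60% from the lowest to the highest quintile, so that its share peaked in the second. The E-box of MITF and TFE factors (CACGTG, 5.14%) had 3.91% and 5.19%, the NF-Y element (CCAAT, 22.5%) 23.0% and 20.6%, and the MAF element (TGCTGA, 18.5%) 19.3% and 21.4%. Elements could share a window: 25.7% of distal windows with AP-1 also held the MAF element and 1.33% the CTCF core.

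**Figure D5:**
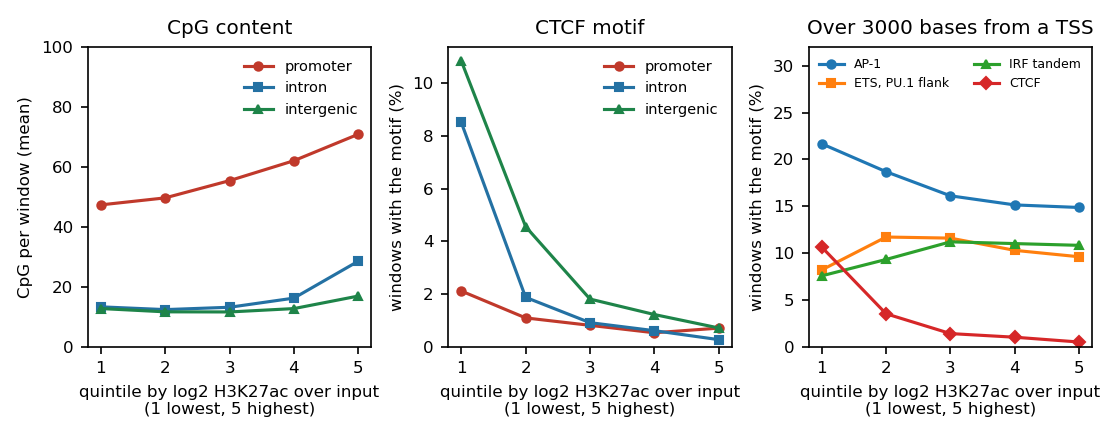
Sequence features of windows grouped in quintiles by log2 fold change of H3K27ac over input, from the lowest (1) to the highest (5): mean CpG per window by class, percent of windows with the CTCF core by class, and percent of distal windows with the AP-1, ETS, IRF and CTCF elements. CpG at promoters ran from 47.3 to 70.9 per window over the quintiles, and the CTCF core in distal windows from 10.6% to 0.498%.

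Over all classes, windows open in more strains had a higher median. Where control cells of all 3 strains had an ATAC–seq peak, 27.3% of 48386 windows were higher and the median was −0.07. With peaks in 2, 1 and 0 strains the medians were −1.91, −2.40 and −2.76, with 8.37%, 6.20% and 9.98% of windows higher. Windows with a peak in 0 strains came from other peaks merged into the set, and their share of higher windows did not follow the median. Promoters did not follow this order, with medians of 0.58, −1.20, −1.05 and 0.89 for peaks in 0, 1, 2 and 3 strains. Of the windows with a peak in 0 strains, the intergenic ones were at −3.26, against −0.81 with peaks in all 3.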

How the data were processed

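H3K27ac ChIP–seq and ChIP input libraries of Kupffer cells were compared in windows of 1000 bp. Per the methods of the study, the authors aligned reads with Bowtie2 to the genome of each strain, moved positions to mm10 with MMARGE and counted tags with HOMER around merged ATAC–seq peaks, without normalization and without pooling of replicates (versions not given in the sources used here, and FastQC and DESeq2 are also named in the submitters' processing notes). The deposited counts of H3K27ac replicates 1 and 3 are whole tags. The deposited values of H3K27ac replicate 2 and of all inputs are estimated counts in steps of 0.5, so this difference in processing is partly tied to the antibody, and how it arose is not stated. A table of allele-specific tags of CB6F1/J hybrids was not used.

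Counts were rounded to whole numbers. Library size was the sum of tags over all windows, since the headers give no whole-library totals, and precision is limited by input tags in most windows and by H3K27ac tags in the lowest ones. edgeR 4.0.16 (R 4.3.3) was fitted to 12 libraries with glmQLFit (robust) and glmQLFTest, with strain and antibody as factors, and with their interaction for strain-specific values. P-values were adjusted by the Benjamini-Hochberg method over the 93969 windows. Windows were called at adjusted p under 0.05 and absolute log2 fold change over 1, and the biological coefficient of variation was 0.230. Low windows have fitted log2 values that depend on the prior count of edgeR. Shares of tags were compared by exact permutation in scipy 1.17.1. No 2 replicates agreed within counting noise (chi-square per window of 1.34 to 5.81), so none was counted as a duplicate. Same-numbered H3K27ac libraries of A/J and BALB/cJ had correlations of their deviations from the group means of 0.326, 0.276 and 0.239. The numbers thus pair these libraries across the strains by the data, the labels naming no shared batch. For inputs (−0.0111 to 0.0416) no pairing was seen, though their few tags per window could hide one. The fit was tested on simulated counts. Alternatives were TMM factors, library sizes from intergenic windows over 10000 bases from a TSS, DESeq2 1.42.0, other count minimums, each library left out, a replicate block and, chosen after seeing the data, a replicate block shared by the strains within H3K27ac, library sizes without repeat windows (input over 5 times the median) and only the 2 fractional H3K27ac libraries.

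The members and lists were chosen with earlier results of these data known. Named windows are the 8 highest and 8 lowest of each class that were called in each strain and did not overlap between H3K27ac and input, with at least 20 input tags (highest) or 60 (lowest), 1 per gene, without Gm and Rik symbols, and some of these and of the list genes are not reported here. Named genes are the 10 with the most higher or lower windows among those with 5 or more, and the 2 highest and 2 lowest promoters of each list, while other genes named were chosen after their values were seen. Motifs and CpG were read from the mm10 reference.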

Additional observations from a re-analysis of the deposited data

Results flagged for a closer look

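A difference between A/J and BALB/cJ in H3K27ac over input passed the edgeR interaction test (adjusted p under 0.05, absolute log2 difference over 1) at 505 of 93969 windows, at 992 with the replicate number as a block across the strains in H3K27ac, and at 51 with only the 2 fractional H3K27ac libraries. The largest were at Pde4b, a phosphodiesterase of cyclic AMP (log2 of 1.10 for A/J, −6.26 for BALB/cJ, a difference of 7.37 ± 1.30, adjusted p = 0.000245), at Cd300ld, a myeloid receptor (−4.20 for A/J, 2.60 for BALB/cJ, −6.81 ± 1.22, adjusted p = 0.000281), and at Ypel3 (−4.28 for A/J, 2.45 for BALB/cJ, −6.73 ± 0.67, adjusted p = 5.72e-11). Leaving out A/J input replicate 2 reduced the number to 262 and leaving out BALB/cJ input replicate 3 reduced it to 276. None of the 94 named windows and list promoters was among the 505, and 1 was among the 992. The named windows had been chosen as called in the same direction in each strain. The groups of 3 libraries were too small for a search for single outlying libraries.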

How the results depend on the processing

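The main limit is the scale. Library sizes rest on the counted windows alone, and each scaling shifts all windows together. Windows higher in H3K27ac numbered 28611 with TMM factors, 31084 with intergenic library sizes and 25478 with DESeq2, against 16710, and windows with a strain difference numbered 335 with DESeq2, 992 with the replicate number as a block across the strains in H3K27ac and 51 with only the 2 fractional H3K27ac libraries, where the spread of the single H3K27ac library per strain is taken from the inputs, against 505. Windows lower numbered 34693 to 51238 over the scalings and DESeq2. Leaving out 1 library gave 16453 to 17395 higher windows, 48127 to 49170 lower windows, 262 to 512 windows with a strain difference and a promoter difference of 15.7 to 16.3 percentage points. The median window held 55.5 input tags over 6 libraries.

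Whether the replicate numbers pair H3K27ac with input could not be told from the counts. H3K27ac and input libraries of the same number had correlations of deviations between 0.000446 and 0.0374. The inputs held a median of only 6 to 16.5 tags per window, so that counting noise could hide a pairing. With the replicate block across strains in H3K27ac 16584 windows were higher and 48791 lower. With the replicate block of each strain 16727 windows were higher, 48486 lower and 496 differed between strains, and the difference in the share of counted tags in promoter windows stayed 15.97 points (exact sign-flip p = 0.03125, the smallest that 6 pairs allow). Each of 19 alternatives was applied to 94 named values. Of the 1786 values, 1720 stayed on the same side, among them all 912 of the 48 named windows, which were chosen as extremes. Another 18 lost and 13 gained a call, and 35 changed sign, all at 8 list promoters that were not called. TMM factors gave Fcgr1 0.82, Itgam 0.071, Bmp2 0.046, Ecm1 0.68 and Cd22 0.68. Intergenic library sizes gave Cd163 0.10, Fcgr1 1.00, Itgam 0.25, Bmp2 0.20, Ecm1 0.86 and Cd22 0.83. DESeq2 gave Fcgr1 0.61, Ecm1 0.47 and Cd22 0.45. The block of each strain gave Fcgr1 0.013, that across strains gave Fcgr1 0.0214, the 2 fractional H3K27ac libraries alone gave Fcgr1 0.24 and Ecm1 0.30, and sizes without repeat windows gave Reep5 −0.15 and Tbp −0.13. Leaving out 1 library gave ranges of −0.13 to 0.26 for Fcgr1, −0.10 to 0.18 for Tbp, −0.083 to 0.20 for Reep5, −0.30 to 0.074 for Ecm1 and −0.40 to 0.0050 for Cd22. The cause of these shifts, beyond the scale itself, was not tested.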
